A study of Mus musculus with 6 samples.

Results

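The genes described here encode the proteins of the mitochondrial ribosome. They were taken by symbol from the deposited gene table, as every row whose symbol starts with Mrpl or Mrps followed by a number, pseudogenes left out, which gave 78 of 24956 gene rows. Of these, 49 carry a large-subunit symbol (Mrpl) and 29 a small-subunit symbol (Mrps). RNA was sequenced in bulk from microglia, the resident macrophages of the brain, which had been sorted by flow cytometry. Of the 6 libraries, 3 came from 3XTg-AD mice aged 7 months that were given an antibody against NK1.1, a receptor on natural killer (NK) cells, and 3 from 3XTg-AD mice of the same age that were given an isotype control antibody. In both groups 25 µg was given every 4 days for 4 weeks, and mice of both groups carry the same Alzheimer's disease-linked transgenes. The series holds no library from mice without the transgenes among those analysed here, and the labels do not say whether a library is 1 animal or a pool. The p-values therefore measure only the spread between these libraries, which may be technical.

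Mitochondria keep a small genome of their own, and the few proteins it encodes, all of them subunits of the respiratory chain and ATP synthase, are made on a dedicated ribosome inside the organelle. The RNA of that ribosome comes from the mitochondrial genome, while its proteins are encoded in the nucleus, made in the cytosol and imported. The small subunit binds the messenger RNA and reads it, and the large subunit joins the amino acids and passes the new chain out through a tunnel facing the inner membrane. Some of the proteins have counterparts in bacterial ribosomes and others are found only in mitochondria. Defects in many of them cause inherited respiratory chain disorders in humans.

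Gene counts per library were 26.9 M to 31.4 M in the anti-NK1.1 group and 31.9 M to 36.1 M in the isotype group. The 14 microglial markers, among them P2ry12, Tmem119 and Csf1r, took 3.59% to 4.53% of gene counts in anti-NK1.1 libraries and 3.61% to 4.08% in isotype libraries, and none of them was at 0 in any library. Markers of other cells were present as well. The 12 neutrophil markers took 3.22%, 3.62% and 12.3% of gene counts in anti-NK1.1 libraries 1, 2 and 3, against 10.1%, 8.14% and 7.93% in isotype libraries 1, 2 and 3. The 10 neuron markers took 0.0226% to 0.0596% in anti-NK1.1 and 0.00459% to 0.0168% in isotype libraries, the 10 oligodendrocyte markers 0.0655% to 0.0965% and 0.0292% to 0.0428%, and the 8 astrocyte markers 0.0134% to 0.0281% and 0.0134% to 0.0212%. The 7 T cell markers with a row took 0.00326% to 0.00360% and 0.00116% to 0.00256%, and the 8 NK cell markers 0.00379% to 0.00632% and 0.00895% to 0.0132%. Defining markers with no count in at least 1 library were Klrb1c, which encodes NK1.1 itself, Klre1, Eomes, Cd4, Gfap and Mog. Klrb1c stood at 0, 0 and 0.52 CPM in the anti-NK1.1 libraries, against 1.39, 1.40 and 2.09 CPM in the isotype libraries, where CPM is the read count relative to library size, scaled between libraries. The part that these other cells play in the results below was not tested.

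All 78 genes passed the filter on low counts, none was at 0 in any library, and single genes had between 104 and 10620 counts in a library. Their levels lay a little above those of the isotype group in the anti-NK1.1 group as a whole, and no single gene passed the test. The log2 change, anti-NK1.1 against isotype, was above 0 for 75 of the 78 genes, against 50.9% of all 14520 genes tested. Its median was 0.25 over the 78 genes and 0.015 over all genes tested. No mitochondrial ribosomal protein gene reached an adjusted p under 0.05 in edgeR's quasi-likelihood test with Benjamini-Hochberg adjustment, and neither did any other gene, so that the share called was 0% of all genes tested. At an unadjusted p under 0.05, 0 of the 78 genes were found in edgeR, against 6.54% of all genes tested (950 genes). DESeq2, run on the same counts without that filter, called 134 of 18662 genes and none of the 78. At so small a share, none of 78 is near the background. The median standard error of the 78 log2 changes was 0.32, larger than their median change. In bulk RNA, fewer cells of a type and less RNA per cell cannot be told apart.

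The library pattern was shared by most of the genes. Mitochondrial ribosomal protein transcripts made up 0.457%, 0.375% and 0.428% of gene counts in anti-NK1.1 libraries 1, 2 and 3, against 0.421%, 0.389% and 0.294% in isotype libraries 1, 2 and 3. The group means were 0.420% ± 0.0415 in anti-NK1.1 and 0.368% ± 0.0662 in isotype (SD, n = 3 each), so the difference of 0.0520 percentage points was below the pooled spread within groups of 0.0552. The groups overlapped, because anti-NK1.1 library 2 lay below isotype libraries 1 and 2. Isotype library 3 was the lowest of all. The mean log2 CPM over the 78 genes was 5.65, 5.29 and 5.74 in the anti-NK1.1 libraries, against 5.47, 5.39 and 4.94 in the isotype libraries, which puts the libraries in nearly the same order.

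**Figure D1:**
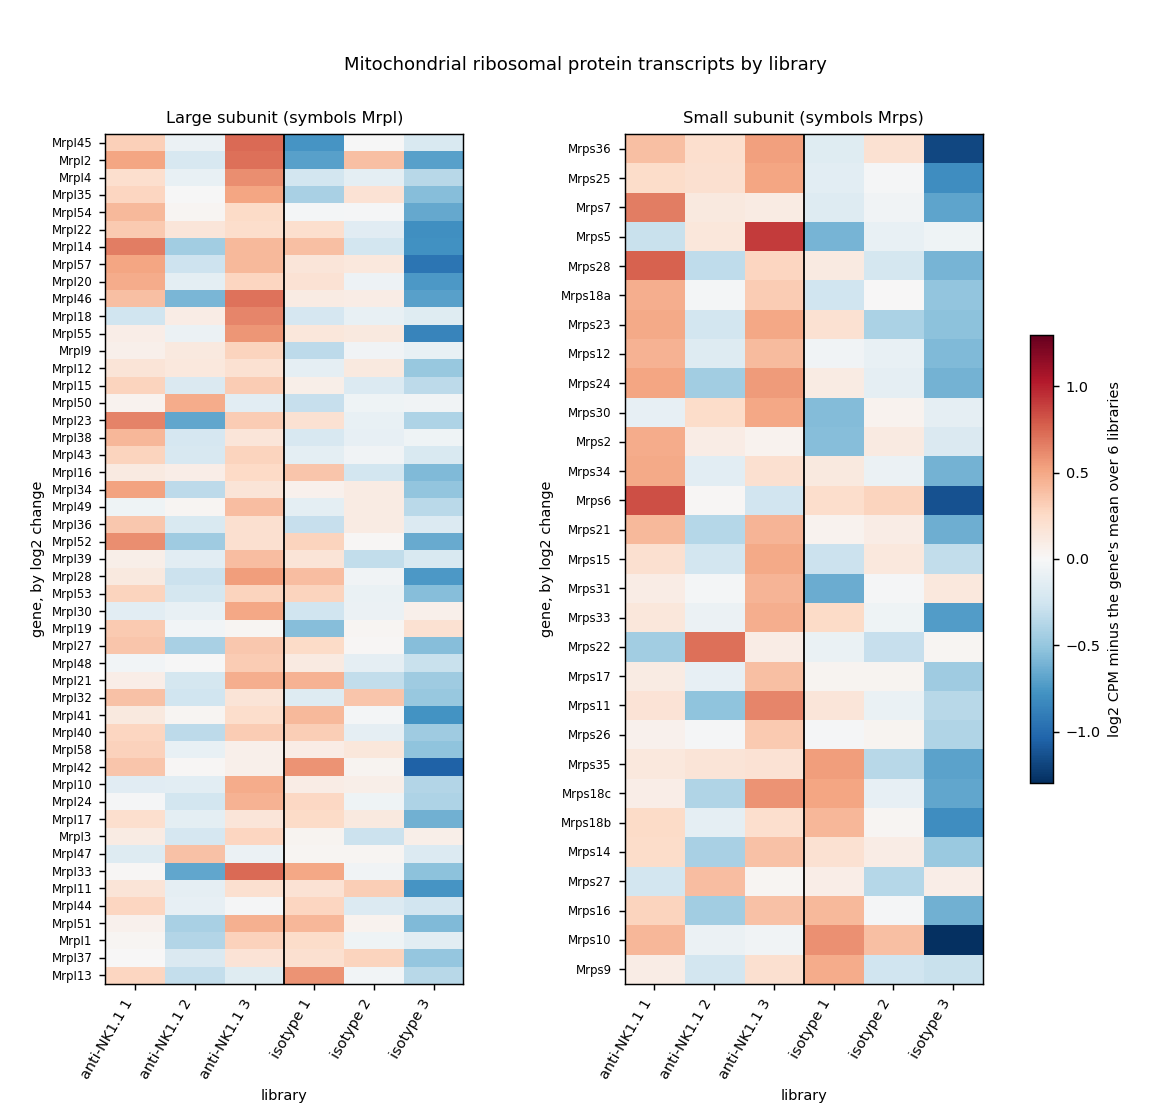
Heat map of log2 CPM minus each gene's mean over the 6 libraries, with 49 large-subunit genes on the left and 29 small-subunit genes on the right, sorted by log2 change. Columns are libraries, anti-NK1.1 before isotype; most cells are red in anti-NK1.1 libraries 1 and 3 and blue in isotype library 3, while anti-NK1.1 library 2 is mostly pale or blue.

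The same ordering held gene by gene. Of the 78 genes, 67, 21 and 72 lay above their own mean over the 6 libraries in anti-NK1.1 libraries 1, 2 and 3, against 50, 33 and 6 in isotype libraries 1, 2 and 3. Within the anti-NK1.1 group, library 2 held the lowest value for 62 genes, and within the isotype group, library 3 did so for 62 genes. Between single libraries, 75 of 78 genes were higher in anti-NK1.1 library 3 than in isotype library 3, but only 25 were higher in anti-NK1.1 library 2 than in isotype library 1, and 25 than in isotype library 2. Over all genes tested, the corresponding shares were 50.2%, 52.2% and 49.7%. The number of higher genes thus moved with the libraries that were included. Without anti-NK1.1 library 1, 2 or 3, the number higher was 69, 74 or 62 of 78, with a median log2 change of 0.25, 0.39 or 0.17. Without isotype library 1, 2 or 3, it was 78, 74 or 58, with a median of 0.41, 0.30 or 0.14. None of the 78 genes was called in any of these. Without anti-NK1.1 library 2, 6 of the 78 had an unadjusted p under 0.05 in edgeR, against 2420 of all 14990 genes tested there.

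Transcript length moved with the libraries in the same way. Mitochondrial ribosomal protein transcripts are short, with a median length of 1255 bases against 2796 bases over all genes tested with an annotation. The Spearman correlation between transcript length and a gene's deviation from its mean, taken across all genes tested and given as a description, was -0.16, 0.26 and -0.32 in anti-NK1.1 libraries 1, 2 and 3, against -0.012, 0.045 and 0.34 in isotype libraries 1, 2 and 3. The libraries with the lowest levels of these transcripts in each group, anti-NK1.1 library 2 and isotype library 3, were thus those in which long transcripts were relatively high. With each library's trend on length and GC content taken out before the edgeR test, 51 of 78 genes were higher, against 46.1% of all genes tested. The median log2 change was 0.14, against -0.055 over all genes tested. An unadjusted p under 0.05 in edgeR was found for 3 of the 78, against 1197 of all 14520 genes tested. None of the 78 was called there either. Single genes moved both ways, and log2 changes then stood at 0.94 for Mrps25, 0.95 for Mrpl35, 0.94 for Mrps5 and 0.78 for Mrps30, but at 0.35 for Mrps7 and 0.16 for Mrpl9. Length and GC content were taken out together, so their parts in the pattern cannot be told apart here, and neither was tested further.

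Among the 39 genes with the shorter transcripts, 38 were higher and the median log2 change was 0.28. Among the 39 with the longer transcripts, 37 were higher and the median was 0.24. The shorter genes averaged 5.79, 5.30 and 5.84 log2 CPM in the anti-NK1.1 libraries, against 5.64, 5.47 and 4.89 in the isotype ones. For the longer genes the means were 5.50, 5.27 and 5.63 in the anti-NK1.1 libraries and 5.30, 5.31 and 4.99 in the isotype libraries. Isotype library 3 was lowest for both sets, and by more for the shorter genes.

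The balance between the subunits, taken by symbol throughout this paragraph, differed slightly between the groups. The mean log2 CPM of the large-subunit genes minus that of the small-subunit genes was 0.37, 0.32 and 0.38 in anti-NK1.1 libraries 1, 2 and 3, against 0.44, 0.44 and 0.48 in isotype libraries 1, 2 and 3. The means were 0.36 ± 0.032 in anti-NK1.1 and 0.45 ± 0.024 in isotype (SD, n = 3 each), a difference of -0.096 on the log2 scale, and every anti-NK1.1 library lay below every isotype library. The median log2 change was 0.23 over the 49 large-subunit genes, 46 of them above 0, and 0.33 over the 29 small-subunit genes, all of them above 0. The ratio of summed CPM, large over small, was 1.98, 2.06 and 2.13 in the anti-NK1.1 libraries, against 2.23, 2.14 and 2.22 in the isotype libraries. The separation also held after the length and GC trends were removed, where the differences were 0.35, 0.32 and 0.37 in the anti-NK1.1 libraries and 0.46, 0.44 and 0.48 in the isotype libraries. As a score over chosen genes the difference was given no p-value.

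**Figure D2:**
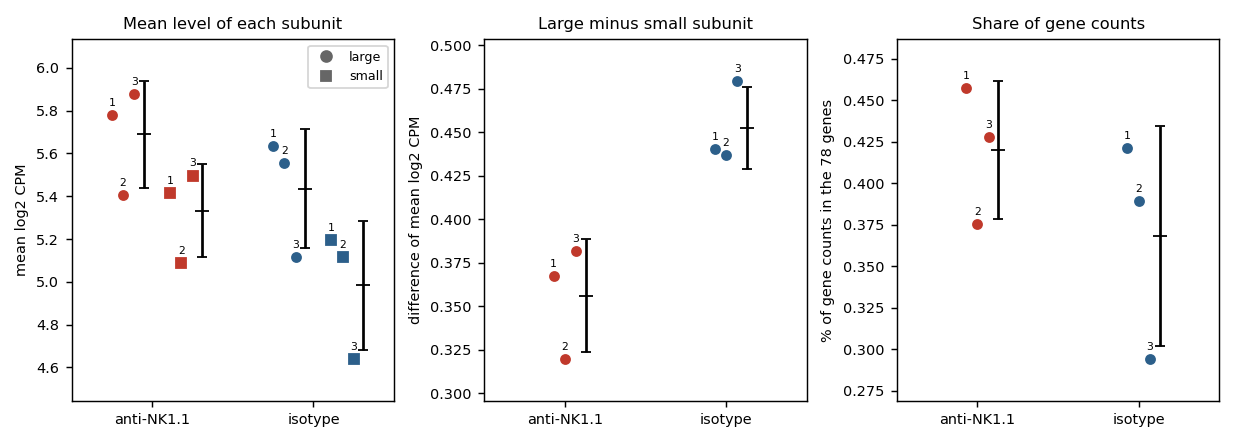
Per-library values with replicate numbers, anti-NK1.1 in red and isotype in blue, and the mean ± SD of each group (n = 3) in black. The panels plot mean log2 CPM of the large (circles) and small (squares) subunit by symbol, the difference between them, and the share of gene counts in the 78 genes. Only the middle panel has groups that do not overlap, at 0.32 to 0.38 in anti-NK1.1 and 0.44 to 0.48 in isotype.

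The symbols do not match the structure in every case, and the subunit result depends on that. Mrps30 and Mrps18a carry small-subunit symbols but sit in the large subunit of the assembled particle, and Mrps36 is not a ribosomal protein but links the parts of the 2-oxoglutarate dehydrogenase complex of the citric acid cycle. With the first pair moved to the large subunit and Mrps36 left out, the large minus small difference was 0.31, 0.30 and 0.34 in the anti-NK1.1 libraries, against 0.33, 0.40 and 0.42 in the isotype libraries. The groups then overlapped, since anti-NK1.1 library 3 lay above isotype library 1, and the difference between the means was -0.063. Mrps36, Mrps18a and Mrps30 had log2 changes of 0.67, 0.51 and 0.42, all above the small-subunit median.

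**Figure D3:**
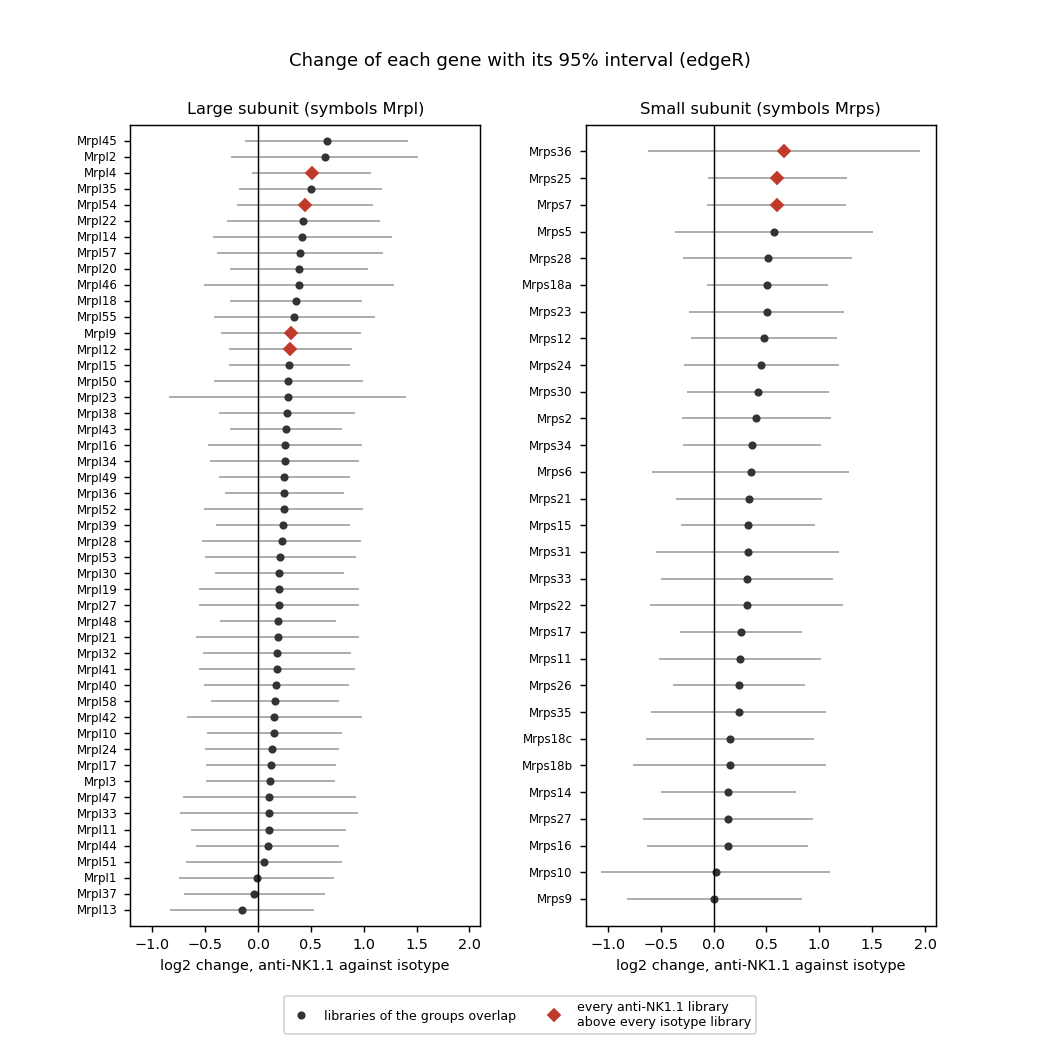
Log2 change of each gene, anti-NK1.1 against isotype, with its 95% interval from edgeR, for large-subunit genes on the left and small-subunit genes on the right. Red diamonds mark the 7 genes whose 3 anti-NK1.1 libraries all lie above the 3 isotype libraries; every interval includes 0.

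In the small subunit, Mrps25, a protein found only in mitochondria, had the smallest p of the 78 genes. It lay at 53.0, 51.8 and 63.8 CPM in the anti-NK1.1 libraries 1 to 3, against 40.8, 44.5 and 25.8 CPM in the isotype libraries 1 to 3. The groups did not overlap, and the log2 change was 0.60 ± 0.29 (SE), 1.52-fold with a 95% interval of 0.964 to 2.39. In edgeR its unadjusted p was 0.0677 and its adjusted p 0.743. Its gene lies at chr6:92169525-92184033 on the minus strand of GRCm38 (mm10), and its exons overlap those of Nr2c2 on the other strand, whose reads cannot be told apart from its own without strand information.

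Mrps7, which sits in the head of the small subunit as its bacterial counterpart does, showed a like difference. It had 75.8, 52.0 and 51.5 CPM in the anti-NK1.1 libraries, against 42.5, 46.2 and 29.7 CPM in the isotype libraries. Again the groups did not overlap, with a log2 change of 0.60 ± 0.29 (SE) and an edgeR adjusted p of 0.743. The exons of Mrps7 overlap those of Gga3 and Mif4gd on the other strand, so its counts are uncertain as well. The other genes listed here under the head did not share that size of difference. Mrps10, Mrps9 and Mrps14 had log2 changes of 0.021, 0.0068 and 0.14, and the median over the 4 listed genes was 0.079. Each gene was listed under 1 role at most, so the list need not hold every protein of the head. Mrps10 had the largest spread within groups of all 78 genes. It stood at 27.7, 19.5 and 19.9 CPM in the anti-NK1.1 libraries, against 30.9, 26.9 and 8.33 CPM in the isotype libraries. A single library, isotype 3, lay far below the rest, and without it the log2 change of Mrps10 was -0.37.

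The 4 genes listed for the path of the messenger RNA and the decoding site had a median log2 change of 0.46. In each of them the libraries of the groups overlapped. Mrps12, whose bacterial counterpart checks the pairing of codon and transfer RNA, had 47.9, 31.2 and 46.6 CPM in the anti-NK1.1 libraries, against 33.9, 32.8 and 23.6 CPM in the isotype libraries. Anti-NK1.1 library 2 lay within the isotype values, and the log2 change was 0.48 ± 0.31 (SE). With the length and GC trends removed it was -0.029. Mrps2, Mrps5 and Mrps24 had log2 changes of 0.40, 0.57 and 0.45.

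Mrps5 had the lowest level per transcript length of all 78 genes. It stood at 14.1, 19.1 and 32.4 CPM in the anti-NK1.1 libraries, against 11.3, 16.2 and 16.6 CPM in the isotype libraries. Only anti-NK1.1 library 3 was far above the others.

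Mrps22 and Mrps34 are mitochondria-specific proteins of the small subunit, and changes in either human gene cause respiratory chain deficiency. Mrps22 ran against the common library pattern. It had 12.3, 27.5 and 17.9 CPM in the anti-NK1.1 libraries, against 15.8, 13.6 and 17.1 CPM in the isotype libraries, so the highest value came from anti-NK1.1 library 2 and the lowest from anti-NK1.1 library 1. Its log2 change was 0.31 ± 0.41 (SE), and -0.041 without anti-NK1.1 library 2. Mrps22, Mrps27, Mrpl47 and Mrpl50 were the only 4 of the 78 genes with their highest value in anti-NK1.1 library 2.

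Mrps34 followed the common pattern, with 76.9, 49.6 and 63.1 CPM in the anti-NK1.1 libraries, against 59.9, 51.8 and 35.8 CPM in the isotype libraries. Its log2 change was 0.36 ± 0.29 (SE), and -0.28 with the length and GC trends removed.

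Mammals have a trio of proteins related to bacterial S18. Mrps18a, the form that sits in the large subunit, had 93.8, 66.4 and 84.9 CPM in the anti-NK1.1 libraries, against 56.5, 68.1 and 47.6 CPM in the isotype libraries. Only isotype library 2 reached into the anti-NK1.1 values, by a small margin over anti-NK1.1 library 2, and the log2 change was 0.51 ± 0.25 (SE), with an edgeR adjusted p of 0.743. With the length and GC trends removed it was 0.091. Mrps18b and Mrps18c, the small-subunit forms, had log2 changes of 0.15 ± 0.41 and 0.16 ± 0.35 (SE), and both were lowest in isotype library 3. Without that library the values were -0.12 for Mrps18b and -0.088 for Mrps18c. Whether Mrps18a differs from its relatives was not tested.

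Mrps36, the dehydrogenase component, had the largest log2 change of the 78 genes at 0.67 ± 0.57 (SE). It was scarce, with 8.16, 7.27 and 9.05 CPM in the anti-NK1.1 libraries, against 5.58, 7.13 and 2.72 CPM in the isotype libraries. The groups were separated by the narrow gap between anti-NK1.1 library 2 and isotype library 2. Mrps30, part of the large subunit despite its symbol, had 34.6, 43.8 and 52.7 CPM in the anti-NK1.1 libraries, against 25.3, 38.3 and 34.4 CPM in the isotype libraries, and a log2 change of 0.42 ± 0.30 (SE).

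In the large subunit, Mrpl45, which lies at the mouth of the exit tunnel and anchors the ribosome to the inner membrane, had the largest change. It had 36.5, 28.1 and 49.0 CPM in the anti-NK1.1 libraries, against 17.4, 29.3 and 25.7 CPM in the isotype libraries. Isotype library 2 lay just above anti-NK1.1 library 2, so the groups overlapped. The log2 change was 0.65 ± 0.34 (SE), with an unadjusted p of 0.0898 and an adjusted p of 0.743 in edgeR. The 6 genes listed under the exit tunnel had a median log2 change of 0.20, ranging from 0.11 in Mrpl47 to 0.65 in Mrpl45.

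Mrpl4, a conserved core protein of the large subunit, was the large-subunit gene with the smallest p. It had 91.7, 73.8 and 119.5 CPM in the anti-NK1.1 libraries, against 66.9, 72.0 and 61.7 CPM in the isotype libraries. The groups did not overlap, by a narrow margin, and the log2 change was 0.51 ± 0.25 (SE) with an edgeR adjusted p of 0.743. With the length and GC trends removed the log2 change was -0.11. Mrpl35, another protein with a bacterial counterpart, had 52.3, 42.8 and 61.3 CPM in the anti-NK1.1 libraries, against 32.3, 49.0 and 29.4 CPM in the isotype libraries, and a log2 change of 0.50 ± 0.30 (SE). Of the 5 genes listed under the peptidyl transferase centre, where amino acids are joined, all had changes above 0, with a median of 0.25. These were Mrpl2, Mrpl3, Mrpl4, Mrpl16 and Mrpl27. Each gene was listed under 1 role at most, so a listed protein, Mrpl4 among them, may belong as much to another site such as the exit tunnel.

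The stalk of the large subunit recruits translation factors. Mrpl12, a stalk protein that also binds the mitochondrial RNA polymerase, had 58.4, 57.0 and 59.5 CPM in the anti-NK1.1 libraries, against 47.8, 56.6 and 36.9 CPM in the isotype libraries. The anti-NK1.1 values were nearly equal and lay just above the highest isotype value, and the log2 change was 0.31 ± 0.26 (SE) with an edgeR adjusted p of 0.788. With the length and GC trends removed it was -0.063. Mrpl10 and Mrpl11, which form the base of the stalk, had log2 changes of 0.15 ± 0.28 and 0.10 ± 0.33 (SE). Mrpl54 lay at 58.5, 44.4 and 51.6 CPM in the anti-NK1.1 libraries, against 42.8, 43.0 and 27.6 CPM in the isotype libraries, without overlap. The median of the 5 genes listed under the stalk was 0.21.

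Mrpl58, which can release a stalled chain and is built into the central protuberance of the large subunit, had 75.1, 57.2 and 64.0 CPM in the anti-NK1.1 libraries, against 65.4, 67.4 and 42.7 CPM in the isotype libraries. The groups overlapped, and the log2 change was 0.16 ± 0.27 (SE). The 6 genes listed under the central protuberance had a median of 0.22. Mrpl9, whose bacterial counterpart reaches out along the surface of the large subunit, had the smallest spread within groups. It had 27.5, 28.7 and 32.2 CPM in the anti-NK1.1 libraries, against 20.8, 25.5 and 24.7 CPM in the isotype libraries. The groups did not overlap, and the log2 change was 0.32 ± 0.29 (SE) with an edgeR adjusted p of 0.810.

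The genes whose libraries did not overlap, all of them higher in the anti-NK1.1 group, were Mrpl4, Mrpl9, Mrpl12, Mrpl54, Mrps7, Mrps25 and Mrps36. That is 7 of 78 genes, against 7.73% of all genes tested with every anti-NK1.1 library above every isotype library, so the share was near the background. Exons of 4 of the 7, Mrpl9, Mrpl12, Mrps7 and Mrps25, overlap those of another annotated gene. In the other direction there were 0 of 78 genes, against 7.59% of all genes tested.

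Only 3 genes had a log2 change below 0, all of them of the large subunit. Mrpl13 had 79.9, 53.3 and 59.2 CPM in the anti-NK1.1 libraries, against 98.3, 64.3 and 51.2 CPM in the isotype libraries, and a log2 change of -0.15 ± 0.31 (SE). Its highest value came from isotype library 1, without which the log2 change was 0.17. Mrpl37 and Mrpl1 had log2 changes of -0.036 ± 0.30 and -0.013 ± 0.33 (SE), and with upper-quartile scaling both lay above 0, at 0.051 and 0.073. Upper-quartile scaling moved the median of all genes tested to 0.097, and the median of the 78 genes stood 0.24 above it, as it did with the usual scaling.

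Per length, the transcripts spanned a wide range of levels. Mrpl33 was the highest at 467 CPM per kb of transcript, followed by Mrpl52 at 212 and Mrps21 at 177 CPM per kb. The lowest were Mrps5 at 4.08, Mrpl19 at 4.79 and Mrpl47 at 4.82 CPM per kb. All 3 of the highest come from short transcripts of 478, 418 and 447 bases in the annotation, and they kept their places with the shortest or the longest annotated transcript of the best rank. Mrpl33 had 212.6, 131.8 and 349.1 CPM in the anti-NK1.1 libraries, against 296.3, 203.9 and 145.5 CPM in the isotype libraries, and a log2 change of 0.10 ± 0.37 (SE). Its libraries spread more within each group than between the groups.

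**Figure D4:**
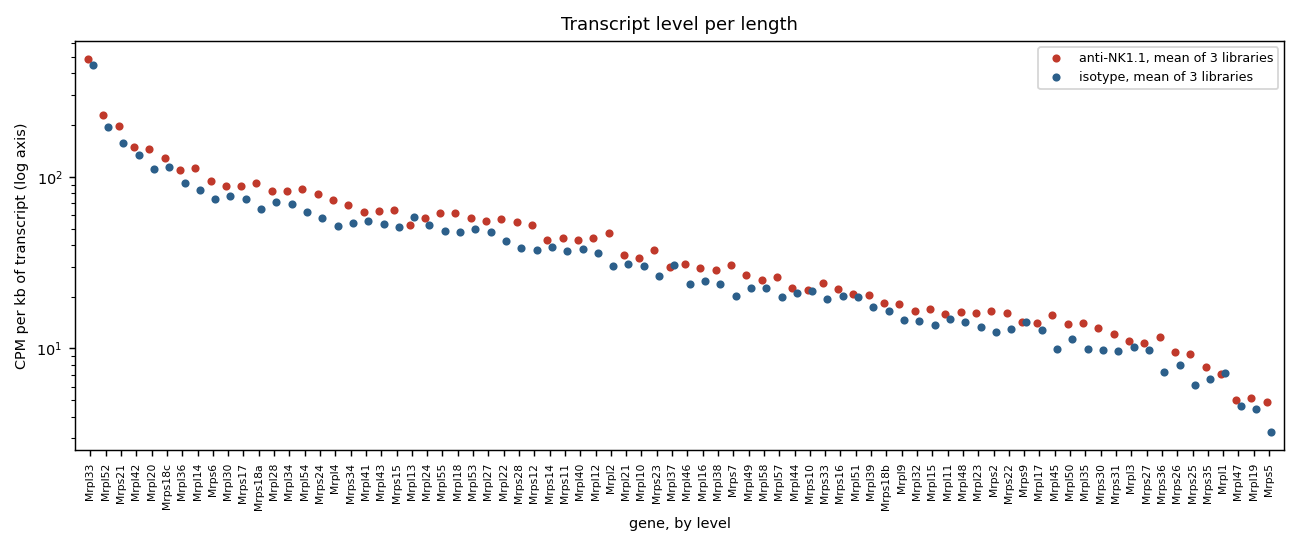
Level of each of the 78 genes per transcript length, in CPM per kb on a log axis, as the mean of 3 anti-NK1.1 libraries (red) and of 3 isotype libraries (blue), sorted by level. Group means run between 484 (anti-NK1.1) and 450 (isotype) CPM per kb for Mrpl33 and 4.88 (anti-NK1.1) and 3.28 (isotype) for Mrps5, and the red point lies above the blue one for most genes.

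The 46 genes with a bacterial counterpart and the 31 mitochondria-specific ones had the same median log2 change of 0.25, with 44 of 46 and 30 of 31 genes above 0. Exons of 33 of the 78 genes overlap those of another annotated gene, so their counts are uncertain. Those 33 genes had a median log2 change of 0.21, and the 45 without such overlap 0.29.

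The 78 genes often share a start region with a gene on the other strand. In the GRCm38 annotation, 23 of them (29.5%) start head to head with another protein-coding gene, against 8.20% of all protein-coding rows. Such starts lie no more than 1000 bases apart or overlap by no more than 200 bases. The protein-coding rows include genes too low to be tested here, unlike the 78. The neighbours showed no one-sided direction, unlike the ribosomal genes, a contrast that was not tested. Their transcripts are longer, with a median of 2516 bases against 1280 for the 23 ribosomal genes. Their changes are also less precise, with a median standard error of 0.47 against 0.31. Of the 23 neighbours, 11 were higher in anti-NK1.1 and the median log2 change was -0.12, whereas 22 of the 23 ribosomal genes were higher, with a median of 0.20. In 1 such pair Mrps12 faces Sars2, which encodes the mitochondrial seryl-tRNA synthetase. Sars2 had 20.5, 4.76 and 16.2 CPM in the anti-NK1.1 libraries, against 2.32, 10.5 and 6.87 CPM in the isotype libraries, with overlap and a log2 change of 1.07 ± 0.70 (SE).

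Promoter sequences from RefSeq (GRCm38.p6) were at hand for 69 of the 78 genes, each from 250 bases before to 50 bases after the start. They were searched on both strands for short motifs of 3 factors known to act on nuclear genes of mitochondria, GABPA of the ETS family (CCGGAAGT), NRF1 (CGCATGCG) and YY1 (AAGATGGC). At least 1 of the motifs was present in 28 of the 69 promoters (40.6%), against 8.36% of all 27025 RefSeq promoters. Among the 18203 promoters of genes with a row in the deposited gene table the share was 10.5%. Both sets include genes too low to be tested here, unlike the 78, and the share among the genes tested was not taken. By motif, CCGGAAGT was found in 15.9% of the ribosomal promoters, 4.02% of all promoters and 5.34% of those with a row. For CGCATGCG the shares were 10.1%, 1.91% and 2.53%, and for AAGATGGC 17.4%, 2.87% and 3.24%. No match overlapped a match of another motif. A match shows letters in a window, not binding, and whether a motif goes with the size of the change was not tested. Only these exact letters were searched, so a promoter without a match may hold another form of the site. The median log2 change was 0.20 with and 0.26 without CCGGAAGT, 0.18 with and 0.25 without CGCATGCG, and 0.25 with and 0.25 without AAGATGGC.

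Stretches of 30 bases around a match are shown for genes described above, to set the motifs beside their surroundings, with the motif in capitals, read 5′ to 3′ on the strand of the gene. For GABPA these are Mrps22 (chr9:98601672-98601701, minus strand, motif starting 11 bases before the start) and Mrpl33 (chr5:31613937-31613966, plus strand, 3 bases before). For NRF1 they are Mrpl9 (chr3:94443298-94443327, plus strand, 27 bases before) and Mrpl10 (chr11:97041436-97041465, plus strand, 135 bases before). For YY1 they are Mrps7 (chr11:115604147-115604176, plus strand, at base 19 after the start) and Mrps18a (chr17:46111004-46111033, plus strand, at base 12).
Mrps22: aacctctcgagCCGGAAGTtgctctatcga
Mrpl33: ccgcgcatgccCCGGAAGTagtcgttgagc
Mrpl9: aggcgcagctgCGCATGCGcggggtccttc
Mrpl10: gcccagctccaCGCATGCGcatagcggccc
Mrps7: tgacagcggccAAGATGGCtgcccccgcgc
Mrps18a: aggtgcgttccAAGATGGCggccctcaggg

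The 250 bases before the start of Mrpl45, the large-subunit gene with the largest log2 change, and of Mrps22, which ran against the library pattern, are given as the longer context. They are from chr11:97315466-97315715 (plus strand) and chr9:98601680-98601929 (minus strand) of GRCm38.p6, and neither stretch holds an annotated exon. The promoter of Mrpl45 holds none of the 3 exact strings searched, though other forms of the factors' sites were not searched for. That of Mrps22 holds the GABPA string, in capitals, next to the start.
Mrpl45: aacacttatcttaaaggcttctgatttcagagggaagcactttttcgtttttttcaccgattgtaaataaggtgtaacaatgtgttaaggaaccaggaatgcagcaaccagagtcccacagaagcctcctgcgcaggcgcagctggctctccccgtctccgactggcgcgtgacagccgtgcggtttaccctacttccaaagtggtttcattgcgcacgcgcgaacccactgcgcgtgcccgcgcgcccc
Mrps22: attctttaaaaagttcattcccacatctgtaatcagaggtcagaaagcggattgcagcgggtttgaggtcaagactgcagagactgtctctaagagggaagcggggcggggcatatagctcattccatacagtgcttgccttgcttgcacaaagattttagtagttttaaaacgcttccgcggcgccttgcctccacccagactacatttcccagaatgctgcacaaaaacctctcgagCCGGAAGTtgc

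Ribosomal subunits that go under other symbols were measured too. Of 5 such genes 4 had a log2 change above 0, with a median of 0.36 and none called. Dap3, a GTP-binding protein of the small subunit, had 45.6, 32.9 and 45.0 CPM in the anti-NK1.1 libraries, against 30.8, 42.3 and 31.8 CPM in the isotype libraries. Its groups overlapped, and the log2 change was 0.24 ± 0.29 (SE). Ptcd3, a small-subunit protein with RNA-binding repeats, was the 1 lower gene, at -0.49 ± 0.67 (SE). Aurkaip1 (0.54 ± 0.28), Gadd45gip1 (0.38 ± 0.30) and Chchd1 (0.36 ± 0.29) had log2 changes above 0 (± SE).

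The genes that assemble, load and run the mitochondrial ribosome were higher and lower in more even numbers, and whether they differ from the ribosomal proteins was not tested. Their transcripts are longer, with list medians of 1858 bases for assembly, 3336 for tRNA synthetases, 2538 for translation factors and 2701 for transcription, and their changes are less precise, with median standard errors of 0.43, 0.52, 0.41 and 0.49 against 0.32. Of 26 genes for assembly and rRNA modification, 14 were higher, the median log2 change was 0.090, and 3 (against 6.54% of all genes tested) had an unadjusted p under 0.05 in edgeR without passing adjustment, all 3 of them lower in anti-NK1.1. Without regard to p, 8 of the 26 genes had groups that did not overlap. In 5 of them, Rcc1l, Mrm2, Mettl17, Malsu1 and Ngrn, anti-NK1.1 was the higher group, with log2 changes of 0.43 to 0.97, and in 3 it was the lower one, against 7.73% and 7.59% of all genes tested. Dhx30, an RNA helicase of the mitochondrial RNA granules, had 12.8, 16.5 and 7.33 CPM in the anti-NK1.1 libraries, against 26.9, 34.0 and 35.3 CPM in the isotype libraries, without overlap. Its log2 change was -1.39 ± 0.39 (SE), with an edgeR adjusted p of 0.727. Gtpbp10, a GTPase of large-subunit assembly, and Eral1, which binds the small-subunit rRNA, had log2 changes of -2.55 ± 0.83 and -0.66 ± 0.28 (SE) with edgeR adjusted p of 0.727 and 0.743, and their groups did not overlap either.

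Of 17 mitochondrial aminoacyl-tRNA synthetases, which attach amino acids to transfer RNAs, 6 were higher and the median log2 change was -0.17. Lars2, the leucyl enzyme, had 236.4, 107.6 and 186.2 CPM in the anti-NK1.1 libraries, against 70.0, 98.2 and 78.7 CPM in the isotype libraries, without overlap and with a log2 change of 1.102 ± 0.31 (SE; edgeR adjusted p of 0.727). Iars2, the isoleucyl enzyme, lay the other way at -1.11 ± 0.40 (SE; edgeR adjusted p of 0.727), and Hars2, the histidyl enzyme, at -0.90 ± 0.45 (SE).

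Of 13 translation factors 8 were higher, with a median of 0.15, and none had an unadjusted p under 0.05 in edgeR. Guf1, a ribosome-binding GTPase, lay at -0.91 ± 0.45 (SE), Tsfm, the exchange factor of the elongation factor Tu, at 0.47 ± 0.34 (SE), and Mrrf, the recycling factor, at -0.43 ± 0.41 (SE). Of 9 genes that transcribe mitochondrial DNA or stabilise its RNA, 3 were higher, with a median of -0.051. Tefm, the elongation factor of mitochondrial transcription, lay at 0.67 ± 0.36 (SE), Lrpprc, which stabilises mitochondrial messenger RNA, at -0.98 ± 0.65 (SE), and Tfb2m, a transcription initiation factor, at -0.82 ± 0.74 (SE). The 13 messenger RNAs and 2 ribosomal RNAs listed for mitochondrial DNA itself had no row in the deposited gene table, so they were not analysed here.

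The cytosolic ribosomal and respiratory chain families, whose transcripts are also short, lay higher in the same way. Of 82 cytosolic ribosomal protein genes tested, 80 were higher (median log2 change 0.25, none called), and of 79 nuclear genes of the respiratory complexes 76 were higher (median 0.31, none called). Mean log2 CPM of the cytosolic ribosomal proteins was 6.99, 6.26 and 6.86 in the anti-NK1.1 libraries, against 6.66, 6.47 and 6.13 in the isotype libraries. For the respiratory genes it was 7.65, 7.16 and 7.42 in the anti-NK1.1 libraries, against 7.45, 7.26 and 6.46 in the isotype libraries. In these families too, library 2 was the lowest of the anti-NK1.1 group and library 3 the lowest of the isotype group. Their median transcript lengths were 779 bases for the cytosolic ribosomal proteins and 838 bases for the respiratory genes. No test of a difference between the families was made.

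**Figure D5:**
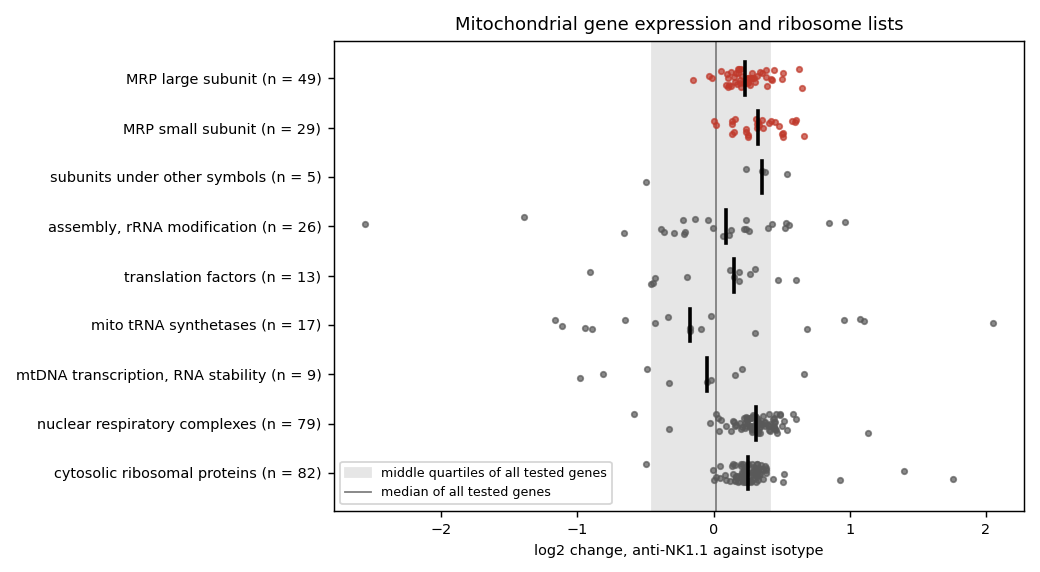
Log2 change of single genes, anti-NK1.1 against isotype, in the 78 mitochondrial ribosomal protein (MRP) genes by subunit (red) and in related lists (grey), with the median of each list as a black bar and the middle quartiles of all tested genes shaded. The ribosomal and respiratory lists have medians of 0.23 to 0.36, with single genes of the cytosolic ribosomal list between -0.50 and 1.76, and the lists for assembly, tRNA synthetases, translation factors and transcription have medians of -0.17 to 0.15.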

How the data were processed

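The deposited table holds read counts per gene in 6 libraries. The authors call them normalized, yet they are whole numbers with unequal totals per library, so they were treated as raw counts; 26 rows with a calendar date in place of a symbol and 2 rows of reads assigned to no gene (no feature, 53.3% to 57.4% of reads, and ambiguous, at most 0.366%) were left out. Per the labels' protocols, SMART-seq v4 gave the cDNA and Nextera XT the libraries, and these kits mark neither strand nor molecules. Precision is limited by the spread between libraries and by the 3 libraries per group. The submitters' processing notes name STAR 2.5.3a, DESeq2 1.1 and Cufflinks 2.0, and the build mm10. Which program counted the reads, and with which strand setting, is not given in the sources used here.

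Genes were filtered with filterByExpr, scaled by TMM (trimmed mean of M values) and fitted on group alone in edgeR 4.0.16 (R 4.3.3). The quasi-likelihood F-test was two-sided, and Benjamini-Hochberg adjusted p-values over the 14520 genes were read at a threshold of 0.05. The SE is the absolute log2 change divided by the square root of F. Log2 CPM used a prior count of 2. The common biological coefficient of variation was 0.640. Length, GC content and coordinates came from the GENCODE annotation of GRCm38 by symbol (99.3% of genes tested), with length as the median over the best-ranked transcripts. No 2 libraries held identical values.

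The members and lists were chosen with earlier results of these data known. Named genes are the 6 of smallest p in each direction (only 3 were lower), the 3 highest and 3 lowest per length, those of largest and smallest spread, a fixed set of 14 (Dap3 and 13 members) and up to 3 of smallest p per list. Other genes were named after their values were seen. A marker gene is not reported here and was left out of its list.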

Additional observations from a re-analysis of the deposited data

How the results depend on the processing

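Alternatives were other scalings (RLE, upper quartile), DESeq2 1.42.0, limma 3.58.1 voom with sample weights, no filter or a mean CPM of at least 5, a replicate block, a length and GC offset, and leaving out libraries. None of them called any of the 78 genes, and 75 to 77 were higher with the other scalings, tests and filters. Over all genes, DESeq2 called 134 of 18662 and voom 4 of 14520. Leaving out 1 library gave 0 to 129, the highest without anti-NK1.1 library 2. Labelled numbers did not pair the libraries (correlations of deviations 0.0525, 0.0301 and -0.00377), and with a replicate block 0 genes were called and the median over the 78 was 0.25. With 1 library left out, 58 to 78 genes were higher, with medians of 0.14 to 0.41. With anti-NK1.1 libraries 1 and 3 out, 36 were higher (median -0.025), and log2 changes were -0.70 for Mrpl33, -0.38 for Mrpl52, -0.23 for Mrps21, -0.17 for Mrps10, -0.071 for Mrpl10, -0.099 for Mrpl11, -0.025 for Mrpl58, -0.079 for Mrps18b, -0.37 for Mrps18c and -0.081 for Dap3. That setting, chosen with earlier results of these data known, leaves 1 library, which was assumed to vary like the isotype group and which lay below isotype 1 and 2 for most of the genes, so it is no test of stability. With isotype 3 and anti-NK1.1 2 out, a setting chosen after seeing the data, 71 of 78 genes were higher (median 0.26), Mrpl1 was at 0.10, Mrpl47 at -0.11, Mrps10 at -0.25 and Mrpl11 at -0.040.

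With the length and GC offset, Mrpl4 was at -0.11, Mrpl1 at 0.53, Mrpl52 at -0.15, Mrps10 at -0.10, Mrpl10 at -0.032, Mrpl12 at -0.063, Mrps12 at -0.029, Mrps18b at -0.099 and Mrps34 at -0.28. Mrpl1 was at 0.017 with RLE, 0.073 with upper-quartile scaling, 0.015 with DESeq2, 0.051 with voom and 0.024 with the CPM filter, and Mrpl37 at 0.051 with upper-quartile scaling and 0.0018 with the CPM filter. Leaving out 1 library gave ranges of -0.34 to 0.17 for Mrpl13, -0.25 to 0.11 for Mrpl37, -0.19 to 0.15 for Mrpl1, -0.32 to 0.42 for Mrpl33, -0.37 to 0.37 for Mrps10, -0.17 to 0.30 for Mrpl11, -0.023 to 0.27 for Mrpl58, -0.12 to 0.47 for Mrps18b, -0.12 to 0.53 for Mrps18c, -0.024 to 0.48 for Mrpl52, -0.084 to 0.21 for Mrpl47, -0.041 to 0.55 for Mrps22 and -0.085 to 0.26 for Mrpl10. The large minus small difference was -0.063 with subunits by structure, and -0.11 to -0.075 with subunits by symbol and 1 library left out. The share of counts differed by 0.149 percentage points without the most abundant 1% of genes in the denominator, and by 0.0149 to 0.0785 with 1 library left out. The cause of these movements was not tested. With 3 libraries per group, changes of the size seen here are within the error of single genes.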
